A study of Rattus norvegicus with 24 samples.

Results

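The genes examined here carry cholesterol through the brain, from its synthesis by the mevalonate pathway to its export, transport between cells, storage as esters and conversion to oxysterols. They were taken from a list of 34 genes by their names in the deposited annotation. In all, 33 were found among the 26641 named loci of a table of 42334 loci, and Cyp51, a demethylase of the synthesis pathway, was not matched and was not analysed here. By role, 13 of the 33 belong to synthesis, 5 to sterol sensing, 4 to efflux and its receptors, 6 to lipoproteins, their uptake and remodelling, 2 to storage and 3 to hydroxylation. As a contrast, the 13 synthesis genes were set against the 12 genes of efflux, transport and storage. The 12 include Lpl and Pla2g7, enzymes that act on lipids of lipoproteins other than cholesterol.

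Messenger RNA was sequenced from adult male Sprague-Dawley rats 3 months after lateral fluid-percussion injury (TBI), in which a pressure pulse is applied to the exposed dura, or after a sham operation with all of the surgery but the pulse. The groups were perilesional cortex and ipsilateral thalamus of 6 TBI animals and the same 2 regions of 6 sham-operated controls, 24 libraries in all, 1 per rat and region. The TBI animals had been chosen by magnetic resonance imaging for an inflamed rim around the cortical lesion, so they do not stand for all injured rats. Values are normalized counts, in which each library's fragments were scaled by that library's size factor, and the libraries held 30568927 to 54608922 fragments. The lowest value of any of the 33 genes in any library stood for 23 fragments.

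The labelled tissues were checked against marker genes. The summed level of 5 thalamic identity genes was 41550 to 55140 in sham thalamus and 1692 to 2089 in sham cortex. That of 5 cortical identity genes was 4991 to 10290 and 60110 to 65940. In TBI animals the thalamic identity sum was 35320 to 42430 in thalamus and 1541 to 1737 in cortex. The cortical identity sum of TBI animals was 3012 to 5257 and 53020 to 61010, so the regions matched their labels. In thalamus the median cortical identity sum was 8275 in controls and 3932 in TBI animals, and the part of this in the results was not tested. In 6 libraries the 5 choroid plexus markers summed to between 10790 and 249500, against 370.5 to 2169 in the other 18. These were the cortex of sham rats 26 and 34 and of TBI rat 45, and the thalamus of sham rats 34 and 50 and of TBI rat 45, which was the highest. Results on the TBI effect that lost or gained a call without these 6 libraries are given with both values.

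Cholesterol in the adult brain is made locally, since lipoproteins of the blood hardly cross the blood-brain barrier, and much of it sits in myelin. Cells turn synthesis on through SREBP2, a transcription factor that SCAP carries to the Golgi when sterols are low and that INSIG proteins hold back when sterols are high. When sterols and their oxidised forms accumulate, the liver X receptors switch on export by ABCA1 and ABCG1 onto particles built around apolipoprotein E, which astrocytes and reactive microglia secrete. Surplus cholesterol is esterified and kept in lipid droplets, or hydroxylated to forms that leave the brain.

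In the perilesional cortex synthesis genes were lower in TBI animals than in sham-operated controls, and in both regions genes of efflux, transport and storage were higher. In the perilesional cortex, 8 of the 13 synthesis genes fell and 0 rose, while 9 of the 12 genes of efflux, transport and storage rose and 0 fell. In the ipsilateral thalamus, 3 of the 13 synthesis genes fell and 0 rose, while 8 of the 12 others rose and 0 fell. The thalamic share of synthesis genes that fell was near the 20.9% of all thalamic loci that fell, so in this fit it does not set these genes apart. In other fits the thalamic count ranged from 1 to 6 of the 13, as given below. Over all 33 genes, 10 rose and 10 fell in the cortex, where 14.3% of all loci tested rose and 14.9% fell. In the thalamus, 10 rose and 5 fell, against 14.5% of all loci that rose and the share that fell given above. Of all loci called in the thalamus, 59.0% were lower in TBI animals, and 48.0% under upper quartile scaling. A rise or fall is an adjusted p under 0.05 in limma on log2(normalized count + 1), adjusted by the Benjamini-Hochberg method over all named loci with a mean of at least 10, which all 33 genes passed. The counts of 0 in these contrasts were also 0 at an unadjusted p under 0.05 in limma, and 0 by edgeR and by DESeq2.

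The sizes of the differences are log2 fold changes of TBI against sham. Their median over the 13 synthesis genes was -0.37 in the cortex and -0.18 in the thalamus, with 12 and 13 of the 13 below 0. Over the 12 genes of efflux, transport and storage the median was 0.49 in the cortex and 0.46 in the thalamus, with 11 and 10 of the 12 above 0. Over all loci tested it was -0.01 and -0.02. In the cortex, all 6 TBI values lay below all 6 sham values for 5 of the 13 synthesis genes and 5.45% of all loci, and above them for 8 of the 12 genes of efflux, transport and storage and 7.02% of all loci. In the thalamus this held for 1 of the 13 and 10.7% of all loci, and for 5 of the 12 and 7.46% of all loci. Without the libraries rich in choroid plexus transcripts, 6 synthesis genes fell in the cortex and 1 in the thalamus, and 8 and 7 genes of efflux, transport and storage rose. Of all loci, 6.06% then fell and 7.90% rose in the cortex, and 15.3% fell and 12.0% rose in the thalamus, so the share of synthesis genes that fell in the thalamus was below that of all loci.

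**Figure D1:**
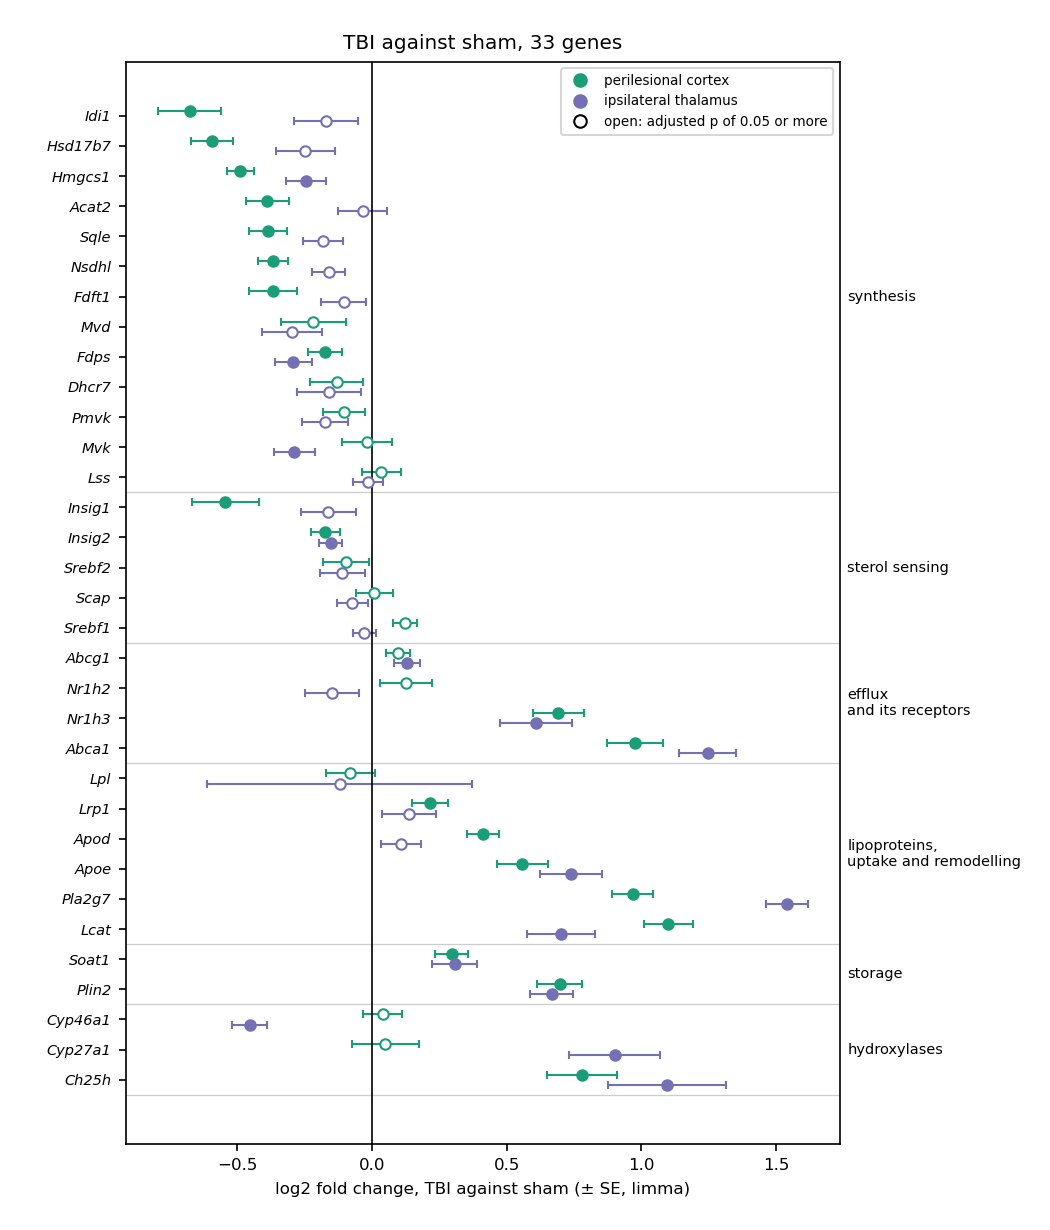
Log2 fold change of TBI against sham with its standard error from limma, for the 33 genes (rows, grouped by role) in perilesional cortex (green) and ipsilateral thalamus (purple), 6 against 6 libraries each. Filled points have an adjusted p under 0.05. Filled synthesis genes lie left of 0, and filled genes of efflux, lipoproteins and storage lie right of 0.

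The contrast was also read rat by rat. For each library, the mean log2 difference from the sham mean of its region was taken over the synthesis genes and over the genes of efflux, transport and storage. In the cortex the synthesis mean was -0.41 to -0.18 in the 6 TBI animals and -0.14 to 0.12 in the 6 controls, and the efflux, transport and storage mean was 0.36 to 0.61 and -0.08 to 0.04. Neither mean overlapped between the cortical groups. In the thalamus the synthesis mean was -0.36 to -0.04 in TBI animals and -0.09 to 0.13 in controls, so that these groups overlapped. The efflux, transport and storage mean was 0.33 to 0.88 and -0.13 to 0.13 there, without overlap. These means describe the genes as a group and were not tested.

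**Figure D2:**
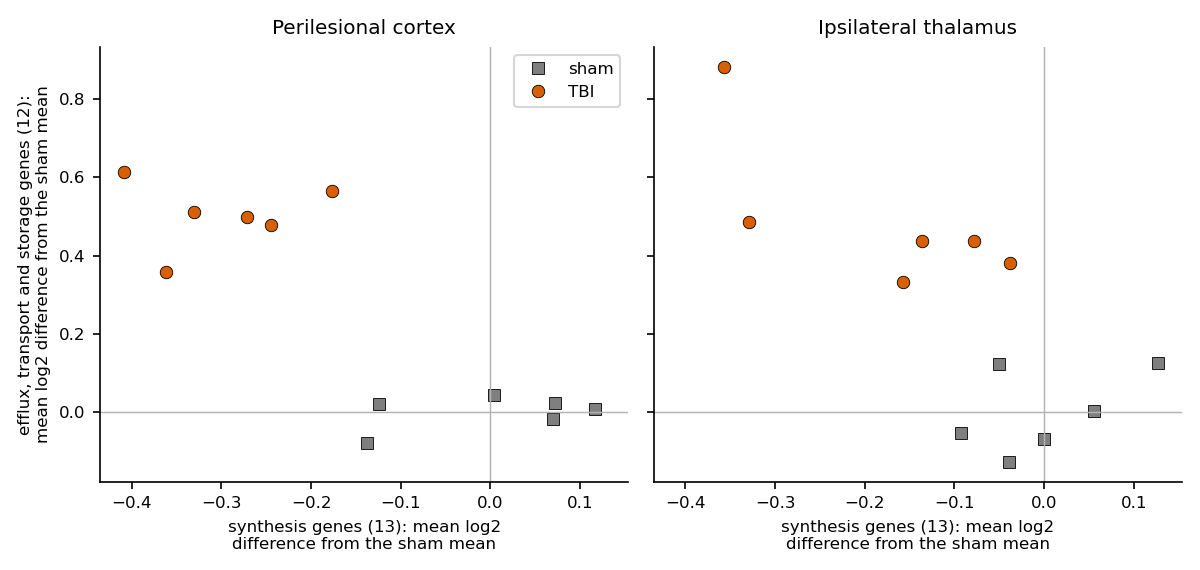
Mean log2 difference from the sham mean of the region over the 13 synthesis genes (x axis) and the 12 genes of efflux, transport and storage (y axis), 1 point per library, in perilesional cortex (left) and ipsilateral thalamus (right). Orange circles are TBI animals and grey squares sham-operated controls. All 12 TBI libraries lie at 0.33 or above on the y axis and all 12 sham libraries at 0.13 or below.

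Marker genes of some cell types also differed between TBI animals and controls. Of all loci tested, 14.3% rose and 14.9% fell in the cortex, and 14.5% rose and 20.9% fell in the thalamus. Of 12 microglia and macrophage markers, 11 rose in the cortex and 12 in the thalamus, and their summed level was 16420 to 17470 in sham and 23000 to 25740 in TBI cortex, and 17490 to 22670 and 34680 to 44460 in thalamus. Of 10 neuronal markers, 7 fell in the cortex and 9 in the thalamus, with sums of 326300 to 352900 in sham and 232100 to 310100 in TBI cortex, and 228200 to 273200 and 145800 to 191300 in thalamus. Of 9 astrocyte markers, 4 rose and 2 fell in the cortex and 4 rose in the thalamus, with sums of 314600 to 336900 and 337800 to 383600 in cortex and 231800 to 246200 and 324500 to 376600 in thalamus. Of 9 oligodendrocyte markers tested, 3 rose in the cortex and 1 in the thalamus, and their sums overlapped between TBI and sham in both regions. Of 3 markers of oligodendrocyte precursors, 3 rose in the cortex and 1 in the thalamus. Of 5 endothelial markers, 0 rose in the cortex and 2 in the thalamus, and of the 5 choroid plexus markers 0 rose or fell in either region. No marker gene of these lists was at 0 in any library. In bulk tissue, fewer cells of a type and less RNA per cell cannot be told apart, and the part of these shifts in the results was not tested.

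Hmgcs1, whose product joins acetyl units into HMG-CoA early in the pathway, lies on chromosome 2 (70791116 to 70809196 in the deposited annotation, labelled Rnor_5.0). Its lowest, median and highest normalized counts were 13457, 14033 and 15598 in sham cortex and 9159, 10230 and 10827 in TBI cortex. All 6 TBI values lay below all 6 sham values, and the difference was -0.49 (SE 0.05, adjusted p = 1.3e-05). In the thalamus the values were 9819, 11771 and 12899 in sham and 8622, 10101 and 10811 in TBI animals, and they overlapped. The thalamic difference was -0.25 (SE 0.07, adjusted p = 0.0183), and it was -0.20 with an adjusted p of 0.0858 without the libraries rich in choroid plexus transcripts.

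The early steps of the pathway differed among themselves. Acat2, the cytosolic thiolase that supplies acetoacetyl-CoA, shares its locus with another Ensembl gene and the 2 cannot be separated. It fell in the cortex (-0.39, SE 0.08, adjusted p = 0.00235) and had a difference of -0.03 (SE 0.09) in the thalamus. The kinases and the decarboxylase that turn mevalonate into isopentenyl diphosphate, Mvk, Pmvk and Mvd, did not pass the test in the cortex, with differences from -0.22 to -0.02, although Mvd had -0.31 with an adjusted p of 0.03 without TBI rat 24. Of these, Mvk fell in the thalamus, from a median of 1283 in sham to 1082 in TBI animals (-0.29, SE 0.08, adjusted p = 0.00877, and -0.27 with an adjusted p of 0.0507 without the libraries rich in choroid plexus transcripts). Mvd had a thalamic difference of -0.30 (SE 0.11, adjusted p = 0.0509), which came under 0.05 when sham rat 38 (-0.33), sham rat 50 (-0.35), TBI rat 52 (-0.38) or TBI rat 56 (-0.33) was left out. Mvd also passed in 2 of the 11 other alternatives. Pmvk had -0.18 in the thalamus (SE 0.08, adjusted p = 0.125) and passed in 1 of the 12 fits with 1 library left out.

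Idi1, the isomerase that makes the second building block of isoprenoids, showed the largest fall of the 33 genes in the cortex. The locus lies on chromosome 17 (59781706 to 59855758). Its values were 1048, 1406 and 1591 in sham cortex and 677, 887 and 1022 in TBI cortex, with no overlap (-0.68, SE 0.12, adjusted p = 0.000681). In the thalamus the values were 1073, 1447 and 1787 in sham and 967, 1322 and 1534 in TBI animals. These groups overlapped and the difference did not pass the test (-0.17, SE 0.12, adjusted p = 0.295).

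Fdps, the farnesyl diphosphate synthase, was the 1 synthesis gene whose thalamic groups did not overlap. Its values there were 11313, 11597 and 12445 in sham and 7882, 9617 and 10759 in TBI animals (-0.29, SE 0.07, adjusted p = 0.00452). In the cortex Fdps stood at the threshold, with -0.18 (SE 0.06, adjusted p = 0.0476). The cortical call was lost when any of sham rats 26, 32, 34, 38 and 55 or TBI rats 22, 45 and 52 was left out, with differences of -0.18 to -0.15 and adjusted p up to 0.103. The call was also lost without the libraries rich in choroid plexus transcripts (-0.16, adjusted p = 0.223), under upper quartile scaling (adjusted p = 0.0583), without the filter (0.0636) and with all 24 libraries in 1 fit (0.0539).

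Fdft1 and Sqle encode the enzymes that commit the pathway to sterols, squalene synthase and squalene epoxidase. Sqle had 1951, 2304 and 2595 normalized counts in sham cortex and 1589, 1763 and 1939 in TBI cortex, again without overlap. Its cortical difference was -0.39 (SE 0.07, adjusted p = 0.00117). Fdft1 fell by 0.37 in the cortex with overlapping groups (SE 0.09, adjusted p = 0.00663), and its difference was -0.26 with an adjusted p of 0.0929 without the libraries rich in choroid plexus transcripts. In the thalamus neither passed the test, with -0.18 for Sqle (-0.21, adjusted p = 0.0489, without TBI rat 56) and -0.11 for Fdft1.

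The late enzymes, which shape lanosterol into cholesterol, divided into those that fell in the cortex and those that did not pass the test. Hsd17b7, a sterol ketoreductase, had values of 572, 643 and 696 in sham cortex and 376, 409 and 491 in TBI cortex. The groups did not overlap (-0.59, SE 0.08, adjusted p = 9.07e-05). Nsdhl, which acts with it in removing methyl groups, had 1337, 1475 and 1608 in sham cortex and 1064, 1145 and 1187 in TBI cortex, also without overlap (-0.37, SE 0.06, adjusted p = 0.000284). The locus named Nsdhl lies on chromosome 1 of the deposited annotation, whereas RefSeq places the gene on chromosome X, so the identity of the locus is uncertain. Lss, which closes the sterol ring, had 0.03 (SE 0.07) in the cortex and -0.01 (SE 0.06) in the thalamus, and Dhcr7, which makes cholesterol from its immediate precursor, had -0.13 (SE 0.10) and -0.16 (SE 0.12).

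In the thalamus the late enzymes did not pass the test. Hsd17b7 had a difference of -0.25 (SE 0.11, adjusted p = 0.0929), and -0.34 with an adjusted p of 0.00481 when sham rat 32 was left out. For Nsdhl it was -0.16 (SE 0.06, adjusted p = 0.0564), and -0.20 and -0.18 without TBI rat 24 or TBI rat 56, both then under 0.05. Of the 11 other alternatives, Hsd17b7 passed in 1 and Nsdhl in 2. The count of synthesis genes that fell in the thalamus, 3 of 13, was 5 without sham rat 38 and 6 without TBI rat 56. Of all loci tested, 2974 of 15589 and 3181 of 15571 fell in those 2 fits. Dhcr7 was lowest in the thalamus of TBI rat 45, at 649 against 962 to 1051 in the 5 other TBI animals, and its difference was -0.05 without that library.

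**Figure D3:**
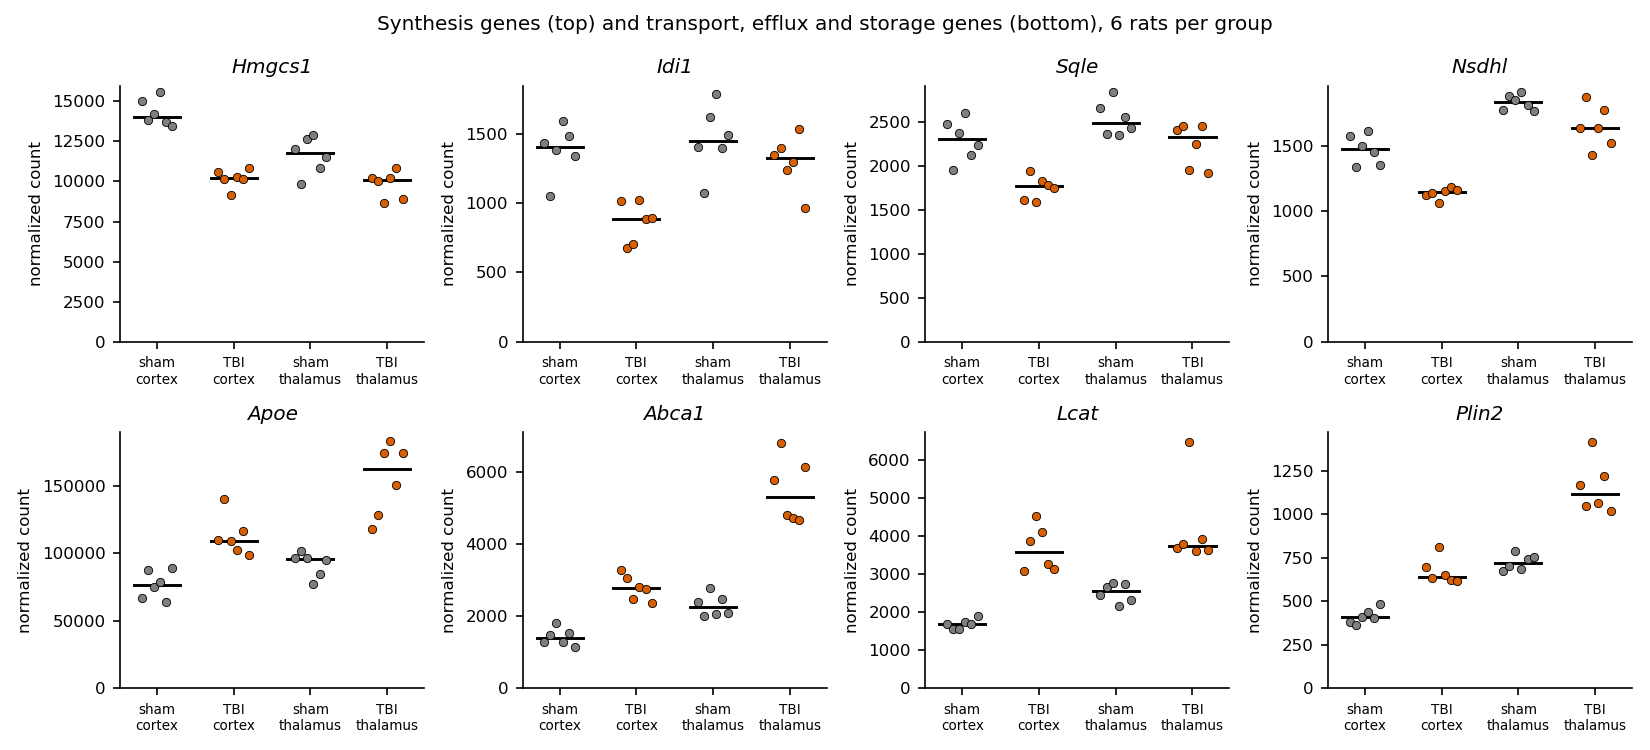
Normalized counts of 4 synthesis genes (top) and 4 genes of transport, efflux and storage (bottom) in the 4 groups, 1 point per rat, with a bar at the median and axes from 0. TBI animals (orange) and sham-operated controls (grey) did not overlap in the cortex for any of the 8 genes, nor in the thalamus for Apoe, Abca1, Lcat and Plin2.

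Promoter sequences are shown for synthesis genes and for Insig1 because SREBP2 acts on such promoters together with the factor NF-Y, which binds CCAAT. RefSeq windows of the GRCr8 build, 250 bases before to 50 bases after the gene start, were matched by symbol for 28 of the 33 genes, of which 27 lie on the chromosome that the deposited annotation gives and Nsdhl does not. Pmvk, Fdft1, Sqle, Lpl and Abcg1 have no entry. Each line gives 30 bases in the direction of the gene, with the CCAAT nearest to the start, or its reverse complement, in capitals.
Hmgcs1, chr2:53382159-53382188, plus strand: ctgagtccggtgATTGGctgagatagctgc
Idi1, chr17:66547542-66547571, minus strand: gtcgaagatgccATTGGctggcgaccgacc
Fdps, chr2:176804884-176804913, minus strand: gaggtcattcagCCAATcagcgaactcggc
Hsd17b7, chr13:84722762-84722791, minus strand: ggttgagccttgATTGGtcggggtgcgcgt
Mvk, chr12:47819500-47819529, minus strand: tcaagctctctgATTGGccggaggaagaca
Insig1, chr4:8057945-8057974, minus strand: cgccctcctcccATTGGctcccgcggcctc

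CCAAT on either strand, counting overlapping matches, occurred in the windows of 8 of the 10 synthesis genes with a window, 4 of 5 sterol sensing genes and 5 of 10 genes of efflux, transport and storage, against 39.6% of 27457 genes with a window. At least 2 matches were found in 7 of the 10 synthesis genes and in 12.2% of all genes. Mvk and Nsdhl held 5 each. The sterol regulatory element core TCACNCCAC, on either strand and with N as any base, was found for 0 of the 28 genes and for 1.25% of all genes with a window. These counts describe letters in short windows and were not tested.

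Among the sterol sensing genes, both INSIG genes were lower in TBI animals. Insig1, itself a target of SREBP2, had 2824, 4229 and 4940 normalized counts in sham cortex and 2193, 2881 and 3273 in TBI cortex, with overlap. It fell by 0.54 (SE 0.12, adjusted p = 0.00448), and its difference was -0.41 with an adjusted p of 0.0547 without the libraries rich in choroid plexus transcripts. In the thalamus its difference was -0.16 (SE 0.10, adjusted p = 0.24). Insig2 fell in the thalamus from 1839, 1952 and 2034 in sham to 1666, 1748 and 1812 in TBI animals, without overlap (-0.15, SE 0.04, adjusted p = 0.0123). Under upper quartile scaling this was -0.11 with an adjusted p of 0.0622. In the cortex Insig2 had -0.17 (SE 0.05, adjusted p = 0.0234), and 0.0515 without sham rat 34 (-0.16) or TBI rat 56 (-0.15). Without the libraries rich in choroid plexus transcripts it was -0.16 with an adjusted p of 0.133.

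The SREBP genes and their escort did not pass the test in either region, with Srebf1 near the threshold in the cortex. Srebf2, the main driver of synthesis genes, had -0.10 (SE 0.08) in the cortex and -0.11 (SE 0.08) in the thalamus. Srebf1, which acts mostly on fatty acid synthesis, shares its locus with Tom1l2 and cannot be separated from it. The joint locus had 0.12 (SE 0.05, adjusted p = 0.0549) in the cortex, and -0.03 (SE 0.04) in the thalamus. The cortical value passed under TMM scaling (0.13, adjusted p = 0.037), upper quartile scaling (0.14, 0.041), DESeq2 (0.12, 0.0288) and all 24 libraries in 1 fit (0.12, 0.0308), and without sham rat 34 (0.14, 0.0431), so its call depended on the fit. Scap had 0.01 (SE 0.07) and -0.07 (SE 0.06).

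Efflux was led by Abca1, which loads cholesterol onto apolipoproteins and lies on chromosome 5 (74014075 to 74143319). Its values were 1154, 1392 and 1804 in sham cortex and 2358, 2785 and 3294 in TBI cortex. In the thalamus they were 2013, 2250 and 2797 in sham and 4670, 5305 and 6827 in TBI animals. Both regions had every TBI value above every sham value. Abca1 rose by 0.98 in the cortex (SE 0.10, adjusted p = 1.59e-05) and by 1.25 in the thalamus (SE 0.11, adjusted p = 1.37e-06), or 1.97-fold and 2.37-fold.

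Nr1h3, the liver X receptor alpha, which is abundant in macrophages, rose while the more widely expressed liver X receptor beta, Nr1h2, did not pass the test. Nr1h3 had 114, 129 and 136 in sham cortex and 168, 210 and 246 in TBI cortex without overlap (0.69, SE 0.10, adjusted p = 0.000137), and in the thalamus it rose from 134, 150 and 182 in sham to 173, 235 and 319 in TBI animals, with overlap (0.61, SE 0.14, adjusted p = 0.00306). Nr1h2 had 0.13 (SE 0.10) in the cortex and -0.15 (SE 0.10) in the thalamus. Abcg1, which passes cholesterol to particles that already carry lipid, differed far less than Abca1. It had 0.10 (SE 0.04, adjusted p = 0.111) in the cortex and 0.13 (SE 0.05, adjusted p = 0.0478) in the thalamus. The thalamic call was lost without any 1 of the libraries except those of TBI rats 45 and 56, with differences from 0.11 to 0.14 in those 10 fits and an adjusted p of up to 0.105, and also without the libraries rich in choroid plexus transcripts (0.15, adjusted p = 0.0576), without the filter (0.0625) and in limma-voom (0.0544).

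Apolipoprotein E, the main lipoprotein of the brain, rose in both regions. Apoe, on chromosome 1 (81878362 to 81881182), had 64003, 76692 and 89278 normalized counts in sham cortex and 99027, 109354 and 140366 in TBI cortex. In the thalamus it had 77167, 95636 and 101619 in sham and 118358, 162322 and 183616 in TBI animals. No TBI value reached down to a sham value in either region, with differences of 0.56 (SE 0.10, adjusted p = 0.000662) and 0.74 (SE 0.11, adjusted p = 0.000217). Apod, an apolipoprotein of oligodendrocytes and astrocytes, rose in the cortex from 4808, 5016 and 5886 in sham to 6389, 6792 and 7402 in TBI animals, without overlap (0.41, SE 0.06, adjusted p = 0.000168). Its thalamic difference was 0.11 (SE 0.07, adjusted p = 0.276). Lrp1, a receptor that takes up particles with apolipoprotein E, had 0.22 in the cortex with overlap (SE 0.07, adjusted p = 0.0256) and 0.14 in the thalamus (SE 0.10, adjusted p = 0.31). The cortical call of Lrp1 was lost without sham rat 26, 38 or 50 or TBI rat 24 or 45, with differences of 0.18 to 0.20 and adjusted p of up to 0.0618, without the libraries rich in choroid plexus transcripts (0.21, adjusted p = 0.0999), and with all 24 libraries in 1 fit (0.22, adjusted p = 0.0715).

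Among genes of lipoprotein remodelling, Lcat and Pla2g7 rose in both regions. Lcat, which esterifies cholesterol on particles, shares its locus on chromosome 19 (48780321 to 48805888) with Slc12a4, and the 2 cannot be separated. The joint locus had 1551, 1696 and 1910 in sham cortex and 3072, 3574 and 4520 in TBI cortex. It rose by 1.10 (SE 0.09, adjusted p = 2.84e-06), the largest rise among the loci of the 33 genes in the cortex. Its thalamic values were 2156, 2565 and 2766 in sham and 3599, 3730 and 6473 in TBI animals, where it rose by 0.70 (SE 0.13, adjusted p = 0.0007). The highest thalamic value came from TBI rat 45, and without it the rise was 0.57 (adjusted p = 2.15e-05).

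Pla2g7, a phospholipase that macrophages secrete and that cleaves oxidised phospholipids on lipoproteins, rose most in the thalamus. Its locus is on chromosome 9 (18813209 to 18864264). The values were 1466, 1631 and 1815 in sham cortex and 2713, 3289 and 3726 in TBI cortex. In the thalamus they were 2523, 2807 and 3313 in sham and 7209, 8432 and 9308 in TBI animals. The groups were far apart in both regions, with rises of 0.97 (SE 0.08, adjusted p = 2.02e-06) and 1.54 (SE 0.08, adjusted p = 1.74e-08), or 1.96-fold and 2.91-fold.

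Lpl, the lipase that frees fatty acids from lipoproteins, depended on the 3 libraries rich in choroid plexus transcripts in the thalamus. It had 186, 252 and 542 in sham thalamus and 167, 195 and 1696 in TBI thalamus. The highest value was that of TBI rat 45, and the 5 other TBI animals lay between 167 and 207. In sham thalamus the highest values, 458 and 542, came from rats 34 and 50, the other thalamic libraries rich in choroid plexus transcripts. The thalamic difference was -0.12 (SE 0.49, adjusted p = 0.874) with all libraries and -0.65 (adjusted p = 0.0486) without TBI rat 45, which keeps both raised sham values. Without all 3 libraries it was -0.27 and did not pass the test (adjusted p = 0.116). In the cortex Lpl had -0.08 (SE 0.09, adjusted p = 0.54).

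Both storage genes rose in both regions. Plin2, the coat protein of lipid droplets, lies on chromosome 5 (108971819 to 108999266). It had 365, 407 and 482 in sham cortex and 618, 642 and 814 in TBI cortex. The thalamic values were 675, 722 and 790 in sham and 1018, 1117 and 1416 in TBI animals. Neither region overlapped, and the rises were 0.70 (SE 0.08, adjusted p = 4.61e-05) and 0.67 (SE 0.08, adjusted p = 2.44e-05). Soat1, which esterifies cholesterol for the droplets, had 1190, 1311 and 1362 in sham cortex and 1422, 1580 and 1768 in TBI cortex, without overlap. Soat1 rose by 0.30 (SE 0.06, adjusted p = 0.00233) there and by 0.31 in the thalamus, where 1390, 1556 and 1702 in sham overlapped with 1642, 1945 and 2376 in TBI animals (SE 0.08, adjusted p = 0.0103).

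The 3 hydroxylases each followed a pattern of its own. Ch25h, the 25-hydroxylase of activated macrophages, had 80.5, 95.3 and 101 in sham cortex and 128, 153 and 221 in TBI cortex. In the thalamus it had 24.2, 42.9 and 60.1 in sham and 64.8, 85.0 and 124 in TBI animals. Its groups did not overlap, and it rose by 0.78 (SE 0.13, adjusted p = 0.000571) in the cortex and 1.10 (SE 0.22, adjusted p = 0.00149) in the thalamus.

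Cyp46a1, the neuronal 24-hydroxylase whose product carries cholesterol out of the brain, lies on chromosome 6 (141416874 to 141443707). It had 12712, 13991 and 15254 in sham thalamus and 8537, 10489 and 11350 in TBI thalamus, without overlap. It fell by 0.45 in the thalamus (SE 0.07, adjusted p = 0.000135). In the cortex the values were 7945, 8769 and 9766 in sham and 7854, 9024 and 10708 in TBI animals, which overlapped throughout (0.04, SE 0.07, adjusted p = 0.71). Neuronal markers fell in both regions, as given above, and their part in the fall of Cyp46a1 was not tested.

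Cyp27a1, the mitochondrial 27-hydroxylase, had 106, 143 and 197 in sham thalamus and 209, 265 and 408 in TBI thalamus. These groups did not overlap, and it rose by 0.90 (SE 0.17, adjusted p = 0.000958). The highest value was again that of TBI rat 45, without which the rise was 0.78 (adjusted p = 0.00101). Cortical values were 185, 292 and 303 in sham and 235, 279 and 354 in TBI animals, with a difference of 0.05 (SE 0.12, adjusted p = 0.795).

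**Figure D4:**
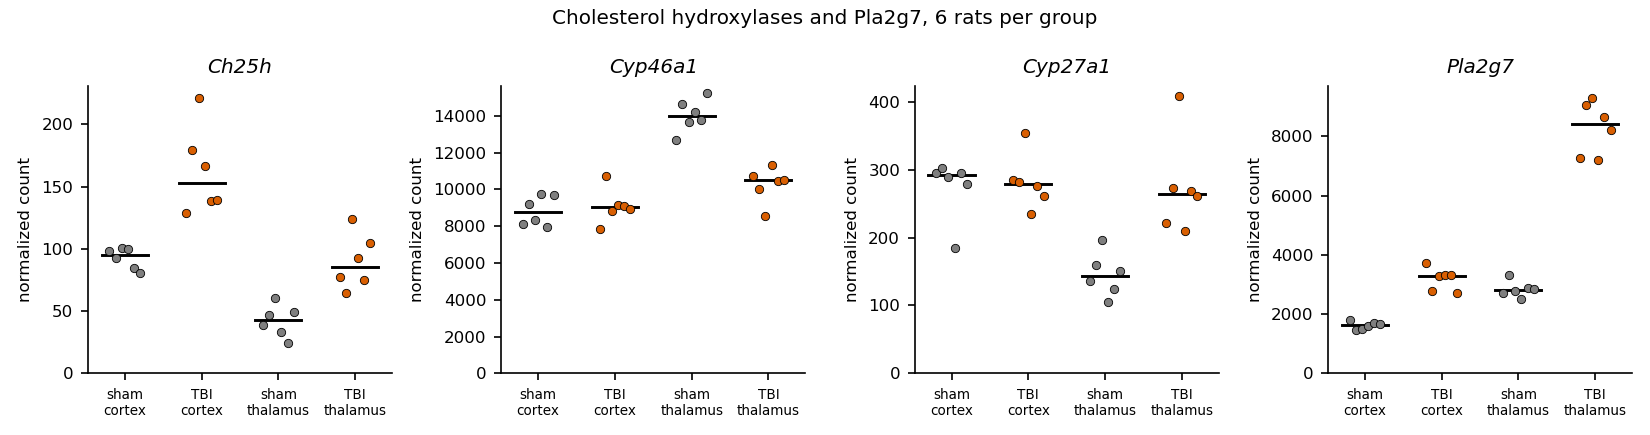
Normalized counts of the hydroxylases Ch25h, Cyp46a1 and Cyp27a1 and of Pla2g7 in the 4 groups, 1 point per rat, with a bar at the median and axes from 0. Cyp46a1 was lower and Cyp27a1 higher in TBI than in sham thalamus, and both overlapped between the cortical groups, while Ch25h and Pla2g7 were apart in both regions.

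Whether injury acted differently on the 2 regions was tested as the TBI effect in the thalamus minus that in the cortex over all 24 libraries. Of the 33 genes, 2 had a more positive effect in the thalamus and 1 a more negative one, where 2.72% and 4.54% of all loci did. Pla2g7, which rose in both regions, rose more in the thalamus (0.57, SE 0.11, adjusted p = 0.00267). Cyp27a1 had the more positive effect there (0.85, SE 0.22, adjusted p = 0.0179). Cyp46a1 had the more negative effect there (-0.49, SE 0.10, adjusted p = 0.00366, and -0.41 with an adjusted p of 0.0522 without the libraries rich in choroid plexus transcripts). Microglial markers shared the direction of Pla2g7, with a more positive effect in the thalamus for 7 of 12, and the part of that shift was not tested.

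No synthesis gene passed this test without regard to the rat, although 5 had a less negative and 1 a more negative effect in the thalamus at an unadjusted p under 0.05 in limma. DESeq2 called 1 synthesis gene, Acat2 (0.36, adjusted p = 0.0481), where 556 of 15337 loci tested were higher, and edgeR called 0 synthesis genes. Both regions came from the same rats, and with the rat as a block 6 of the 33 genes had a more positive and 2 a more negative effect in the thalamus, where 3.21% and 5.08% of all loci did in that fit. Synthesis and sensing genes then had a less negative effect in the thalamus than in the cortex, namely Hmgcs1 (0.24, adjusted p = 0.0481, and 0.105 without the block), Idi1 (0.51, adjusted p = 0.0304 and 0.0847), Acat2 (0.36, adjusted p = 0.018 and 0.084) and Insig1 (0.38, adjusted p = 0.00422 and 0.186). Apod had a less positive effect in the thalamus (-0.31, adjusted p = 0.0198 with the block and 0.0504 without). Pla2g7, Cyp27a1 and Cyp46a1 passed in both fits.

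Between the regions themselves, most of the 33 genes stood higher in the thalamus. In sham-operated controls 19 were higher and 6 lower in thalamus than in cortex, where 33.9% and 28.3% of all loci were. In TBI animals 19 were higher and 2 lower, against 31.0% and 26.5% of all loci. With the libraries rich in choroid plexus transcripts left out, 17 were higher and 6 lower in controls, against 28.0% and 23.9% of all loci. In TBI animals 20 were then higher and 3 lower, against 30.5% and 26.3%. Not every gene whose call changed in these fits is named below. These comparisons share libraries with those of TBI against sham, so their values are given side by side only. All 9 oligodendrocyte markers were higher in the thalamus of both sham and TBI animals, with summed levels of 133200 to 177700 in sham cortex and 418200 to 579300 in sham thalamus, and the part of this in the regional differences was not tested.

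Apod had the largest regional difference in controls, at 1.61 (SE 0.07, adjusted p = 2.17e-11), with 1.30 (SE 0.06) in TBI animals. Plin2 was higher in the thalamus by 0.81 (SE 0.07) in controls and 0.78 (SE 0.09) in TBI animals, and Abca1 by 0.70 (SE 0.10) and 0.97 (SE 0.11). Ch25h was lower in the thalamus, with -1.17 (SE 0.19, adjusted p = 4.58e-05) in controls and -0.86 (SE 0.17, adjusted p = 0.000657) in TBI animals. Cyp46a1 was 0.67 higher in the thalamus of controls (SE 0.06, adjusted p = 1.1e-07) and 0.18 higher in that of TBI animals (SE 0.08, adjusted p = 0.0637). Cyp27a1 was lower in the thalamus of controls (-0.92, SE 0.15, adjusted p = 6.78e-05) and had -0.07 (SE 0.15) in TBI animals. Lpl was lower in the thalamus of controls (-0.92, SE 0.21, adjusted p = 0.00131), and in TBI animals it had -0.96 with an adjusted p of 0.0842, or 0.0318 with the rat as a block. Without the libraries rich in choroid plexus transcripts, Lpl had -1.43 in TBI animals (adjusted p = 3.94e-08).

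Calls of other genes between the regions also turned on the fit. With the rat as a block, Insig1 (0.25, adjusted p = 0.00281), Nr1h2 (0.22, adjusted p = 0.0218) and Fdft1 (0.15, adjusted p = 0.0496) were higher in the thalamus of controls, where they had adjusted p of 0.0811, 0.0502 and 0.0667 without it. Nr1h2 also passed with a pseudocount of 5 (adjusted p = 0.0498), in limma-voom (0.0483) and in DESeq2 (0.0485). With 1 library left out, Nr1h2 and Fdft1 each passed in 3 of 12 fits and Insig1 in 2. Apoe and Nr1h3 were higher in the thalamus of controls with all libraries (0.27 and 0.27, adjusted p = 0.0172 and 0.0277) but not without those rich in choroid plexus transcripts (0.22 and 0.18, adjusted p = 0.145 and 0.255). The call of Nr1h3 was also lost without the cortex of sham rat 50 or the thalamus of sham rat 26, 34 or 50, with an adjusted p of up to 0.0675 and differences of 0.22 to 0.26. In TBI animals Fdps was higher in the thalamus by 0.20 (adjusted p = 0.0304), a call lost under TMM scaling (0.18, adjusted p = 0.0528) and without the cortex of rat 22, 45 or 52 or the thalamus of rat 22, 52 or 56, with differences of 0.17 to 0.19 and an adjusted p of up to 0.071.

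The synthesis genes did not share 1 regional order. In controls, 7 of the 13 were higher in the thalamus, led by Mvk (0.65, SE 0.08) and Lss (0.55, SE 0.06). Hmgcs1 (-0.30, SE 0.06) and Hsd17b7 (-0.38, SE 0.10) were lower there. In TBI animals 10 were higher and 0 lower, with Hmgcs1 at -0.06 (SE 0.06) and Hsd17b7 at -0.03 (SE 0.09). Idi1 had 0.08 (SE 0.11) in controls and 0.59 (SE 0.12, adjusted p = 0.000954) in TBI animals.

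**Figure D5:**
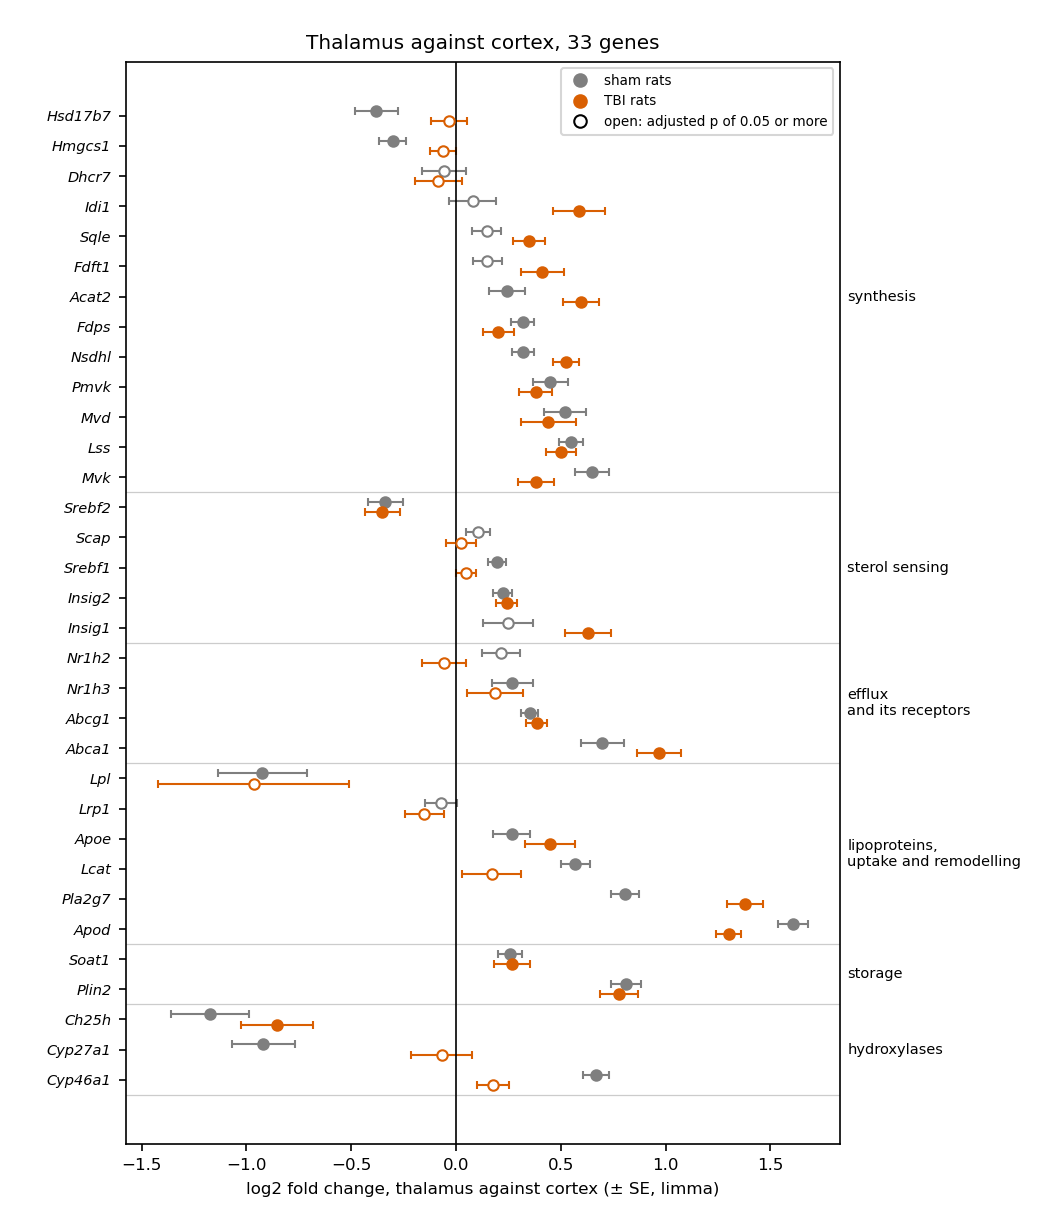
Log2 fold change of thalamus against cortex with its standard error from limma, for the 33 genes (rows, grouped by role) in sham-operated controls (grey) and TBI animals (orange), 6 against 6 libraries each. Filled points have an adjusted p under 0.05. Cyp46a1 and Cyp27a1 lie away from 0 in controls and nearer to it in TBI animals.

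A further list of 60 genes of sterol synthesis, uptake, transport, storage and turnover was taken alongside, of which 59 were matched and 56 tested. In the cortex 14 rose and 17 fell, with a median of 0.05, where 14.3% and 14.9% of all loci did. In the thalamus 16 rose and 13 fell, with a median of -0.02, where 14.5% and 20.9% of all loci did, so the falls were near that share. Those with the largest differences and no overlap were Tspo, a mitochondrial protein and marker of reactive glia (1.36, SE 0.18, adjusted p = 8.34e-05), Fabp7, a fatty acid carrier of astrocytes and their precursors (1.34, SE 0.11, adjusted p = 2.84e-06), and Npc2, which moves cholesterol out of lysosomes (0.94, SE 0.08, adjusted p = 4.08e-06), in the cortex. In the thalamus they were Plin4, another droplet coat protein (1.54, SE 0.14, adjusted p = 2.69e-06), Npc2 (1.50, SE 0.08, adjusted p = 2.45e-08) and Fabp7 (1.06, SE 0.08, adjusted p = 5.8e-07). All of these named genes rose. Over the list, all 6 TBI values lay above all 6 sham values for 8 genes in the cortex and 9 in the thalamus. They lay below for 9 and 6. Of all loci, 7.02% and 7.46% lay above and 5.45% and 10.7% below. The lowest difference of the list was -0.58 in the cortex and -0.49 in the thalamus.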

How the data were processed

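Polyadenylated RNA was made into strand-specific libraries by the authors, and TopHat2 2.0.11, Bowtie2 2.2.2 and Cufflinks 2.2.1 with Rnor_5.0 are named in the submitters' processing notes. The methods also name RGSC3.4, but loci reach position 290090286 on chromosome 1, past the end of that chromosome in RGSC3.4, so coordinates are given as Rnor_5.0. The deposited signal values are normalized counts, that is fragments per locus over 1 library-wide size factor. In every library, all low values (100%) lay within 0.1 of a whole multiple of 1 step, from which fragments were recovered. Loci without a gene name (15693) were left out of the fits.

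Samples were grouped by their labels. Each comparison was fitted with limma 3.58.1 under R 4.3.3 (linear model, moderated by eBayes with its trend option) on log2(value + 1) over loci with a mean of at least 10, adjusted by Benjamini-Hochberg, with a threshold of 0.05. TBI was compared with sham within a region, thalamus with cortex within sham or TBI animals, and the TBI effect between regions over 24 libraries. The genes and lists were chosen with earlier results of these data known. By rule, genes were described in full where they passed without overlap between groups in a region, or passed in the difference between regions, and from the further list up to 3 genes per region with the largest differences without overlap. Rat numbers in the labels pair the regions, since both came from the same animal. Over 12 rats, the deviations of the 2 libraries from their group means had correlations of 0.00393 to 0.569 (median 0.188), 10 of them over 0.1. For 8 rats the correlation exceeded that with the thalamus of any other rat of the same group. For rats 24, 26, 50 and 52 it did not, as with 0.0137 against 0.295 for rat 26.

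Alternatives were TMM and upper quartile scaling, no filter, a stricter filter (mean of 50 or more), a pseudocount of 0.1 or 5, limma-voom, edgeR 4.0.16 and DESeq2 1.42.0 on the recovered fragments, all 24 libraries in 1 fit, the rat as a block and leaving out each library. Leaving out the libraries in which 5 choroid plexus markers summed to at least 10000 was chosen after seeing the data. The limma fit was tested on simulated data. Those counts were drawn independently for each library, so that test does not cover the pairing of regions by rat. Python 3.11.15 with pandas 2.3.3 and matplotlib 3.10.9 prepared tables and plots.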

Additional observations from a re-analysis of the deposited data

Results flagged for a closer look

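Of 132 checks of a gene in a group of 6, 6 had 1 value set apart from the rest by Dixon's criterion, and chance gives about 1 in 20. Of these, 4 were values of TBI rat 45 in the thalamus, the library with most choroid plexus transcripts, namely Lpl (1696, others 167 to 207), Lcat (6473, others 3599 to 3917), Cyp27a1 (408, others 209 to 274) and Dhcr7 (649, others 962 to 1051). The others were Srebf2 in the cortex of TBI rat 24 (7879, others 5955 to 6655) and Cyp27a1 in the cortex of sham rat 38 (185, others 279 to 303).

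The TBI effect differed between thalamus and cortex in limma for Cyp46a1 (-0.49, adjusted p = 0.00366), Cyp27a1 (0.85, adjusted p = 0.0179) and Pla2g7 (0.57, adjusted p = 0.00267).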

How the results depend on the processing

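Without the libraries rich in choroid plexus transcripts, an alternative chosen after seeing the data, 6 of the 33 genes fell in the cortex and 3 in the thalamus, 1 of these a synthesis gene, and over all loci 1223 rose and 939 fell in the cortex. The difference between regions then had 0 of the 33 genes lower in limma (3 at an unadjusted p under 0.05, and Cyp46a1 at an adjusted p of 0.0522), with 194 loci higher and 228 lower over all. This fit holds fewer libraries. DESeq2 and the fit of all 24 libraries each gave 5 synthesis genes lower in the thalamus. Of all loci tested, 3501 of 15495 and 3445 of 15564 were lower in these fits. With the rat as a block, 6 genes were higher and 2 lower in the difference between regions, and the block changed no other call than those given for it above. A mean of at least 50 and DESeq2 each gave 2 lower, where 722 of 13760 and 1000 of 15337 loci tested were lower.

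Some differences that did not pass the test changed sign, and all of these but that of Lpl were near 0. Without the libraries rich in choroid plexus transcripts, Scap had -0.0272 and Cyp46a1 -0.002 in the cortex, and Lss 0.0027, Acat2 0.0108 and Srebf1 0.0036 in the thalamus. Under upper quartile scaling, Lss had 0.0249, Acat2 0.0049 and Srebf1 0.0112 in the thalamus. Lpl, with -0.12 (SE 0.49) in limma, had 0.4631 by edgeR and 0.4615 by DESeq2 there. Its thalamic means were 439.74 in TBI animals, where rat 45 had 1696, and 319.38 in controls. The cause was not tested.

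With 1 library left out, 5 to 8 of the 33 genes and 3 to 6 synthesis genes fell in the thalamus (both highest without TBI rat 56). Over all loci, 2668 to 3282 fell in these fits. In the difference between regions 2 to 4 of the 33 genes were higher (4 without the cortex of sham rat 32) and 1 to 2 lower. Over all loci, 310 to 471 were higher and 500 to 858 lower in that comparison. Of the 33 genes, 2 were lower without the cortex of sham rat 32 or TBI rat 22, or the thalamus of sham rat 34, 38 or 55 or TBI rat 45 or 63. In the cortex Mvk ranged from -0.09 to 0.0135, Lss from -0.0186 to 0.0721, Scap from -0.043 to 0.0348, Cyp46a1 from -0.0081 to 0.0813 and Cyp27a1 from -0.06 to 0.1002. In the thalamus Lss ranged from -0.0421 to 0.0109, Acat2 from -0.0847 to 0.0247 and Lpl from -0.6485 to 0.0543. No gene called in the comparisons of TBI with sham changed sign under any alternative run.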
